A study of Homo sapiens with 18 samples.

Results

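The 60 genes described here lie on the short arm of human chromosome 8 and were followed through knockdown of EMD in 3 prostate cancer cell lines. They were chosen by symbol in the DU145 table and matched by Ensembl identifier in the other tables, and make up 60 of the 41440 genes found in any of the 3 tables and 60 of the 272 protein-coding genes that GENCODE release 29 places on this arm. In GRCh38 they run from MFHAS1 (chromosome 8, 8783354 to 8893645, minus strand) to PPP2CB (chromosome 8, 30774457 to 30814314, minus strand). They were proposed after their change in DU145 had been seen, so the DU145 knockdown values chose them and are given below as a description. Earlier results of these data were known at the time, so the C4-2B and 22Rv1 values cannot be called independent of the choice. Of the 60, 58 were tested in C4-2B and 59 in 22Rv1, against 95 and 106 of the 212 other protein-coding genes of the arm.

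RNA was sequenced from 18 libraries, with 3 control and 3 EMD knockdown libraries in each line. C4-2B is a castration-resistant subline of LNCaP with bone-metastatic behaviour, 22Rv1 was grown out from a relapsed human xenograft, and DU145 was started from a metastasis to the brain. Per the labels, control cells of every line received scrambled siRNA and knockdown cells received siRNA against EMD, by lipid transfection. C4-2B and 22Rv1 were kept in RPMI-1640 and DU145 in DMEM. The DU145 knockdown libraries carry the prefix shEMD in their names, which does not match the siRNA of the protocol, and the labels do not say which reagent was used or whether the DU145 cells passed through selection. Nothing in them says that the 3 libraries of a group came from separate cultures, so p-values measure the spread between these libraries. Line, table and batch label coincide, and medium differs for DU145, so these cannot be told apart when lines are compared.

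The short arm of chromosome 8 is among the regions most often lost in prostate carcinoma, while the long arm is often gained. Several genes of the short arm have been studied as tumour suppressors, among them DLC1 and LZTS1, a leucine zipper protein tied to the cell cycle. EMD, on the X chromosome, encodes emerin, which anchors chromatin and lamins to the inner nuclear membrane.

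Library totals were 14722733 to 25112148 reads in C4-2B, 15602874 to 30788078 in 22Rv1 and 21024352 to 43311727 in DU145. EMD fell in each line: from 65.4 to 73.9 CPM (read counts scaled to library size) to 6.51 to 10.2 in C4-2B, from 62.8 to 71.5 to 17.1 to 20.5 in 22Rv1, and from 40.1 to 46.1 to 4.66 to 5.22 in DU145. EMD and marker levels in this paragraph are scaled to library totals alone. Levels of listed genes within a line are CPM after composition scaling by TMM. Changes are log2 of knockdown over control with their standard error. A gene is said to rise or fall where edgeR's quasi-likelihood test gave a Benjamini-Hochberg adjusted p under 0.05 over all genes of that line. HOXB13, a prostate lineage factor, was listed at 0 in the DU145 controls. Summed markers of blood cells reached 2.96 CPM at most in C4-2B controls, 0 in 22Rv1 controls and 0.965 in DU145 controls. Of the 4 blood markers, 1 had an entry in C4-2B, 1 in 22Rv1 and 4 in DU145, so these sums cover different genes. Summed luminal markers went from 1921 to 2035 CPM in DU145 controls to 941 to 960 in the knockdowns, and their part in the results below was not tested. In bulk RNA, fewer cells of a kind and less RNA per cell cannot be told apart.

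In DU145, 57 of the 60 listed genes lay lower in the knockdown libraries, with differences from -3.83 (DLC1) to 2.91 (CSGALNACT1). Median differences by role ran from -0.36 to -0.64, and roles were not tested against each other. All 60 passed the filter on low counts. Their median log2 difference was -0.48, a ratio of 0.715, with the middle of the distribution between -0.73 and -0.31, against a median of 0.01 over the 19377 genes tested. Past the threshold, 56 were lower, where 23.6% of all genes were, and 2 were higher, where 24.1% were. Since this contrast chose the genes, nothing is read from those counts. The 3 control libraries had member medians of -0.01, 0.03 and -0.02 on a log2(CPM + 0.5) scale relative to the control mean, and the 3 knockdown libraries -0.50, -0.44 and -0.51. Control and knockdown libraries did not overlap for 55 genes in the lower direction (26.6% of all genes) and 2 in the higher direction (28.2% of all genes). Without knockdown library 1, 49 were lower past the threshold, with PINX1, MTMR9, SH2D4A, PPP3CC, DPYSL2, HMBOX1 and GTF2E2 no longer called. PINX1, DPYSL2 and MTMR9 also lost the call without at least 1 other library. Within 0.5 log2 units of the median lay 47 of the 60 genes, beside 50 of 58 around the C4-2B median and 41 of 59 around that of 22Rv1. The median absolute deviation of the members was 0.32, against 0.43 over all genes and 0.46 over the 127 other short-arm protein-coding genes tested. The list was chosen on this contrast, so nothing is read from its spread.

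**Figure D1:**
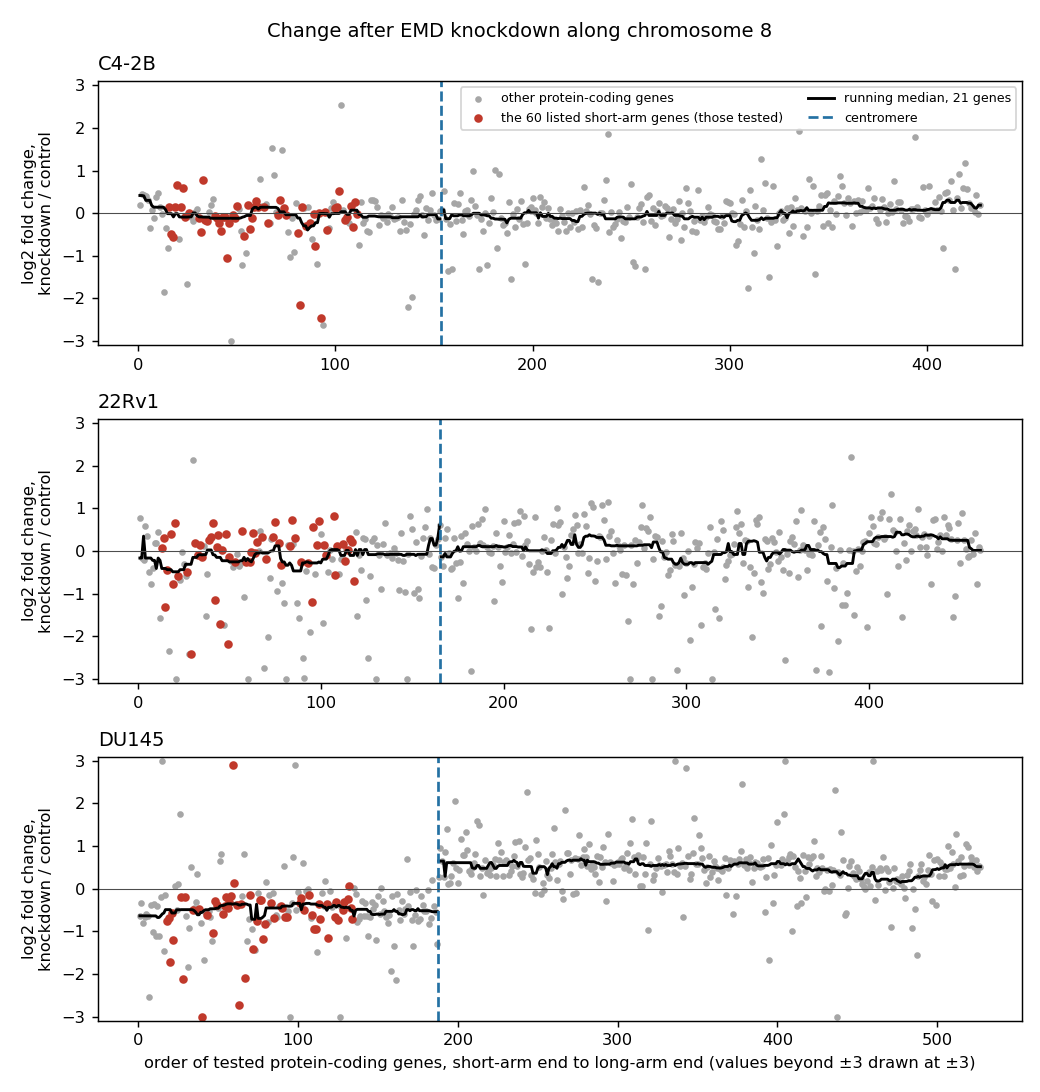
Log2 fold change of tested protein-coding genes (knockdown over control) against their order along chromosome 8, with 1 panel per line, the listed genes in red, other genes in grey and a running median of 21 genes in black. In DU145 the running median lies below 0 along the short arm and above 0 along the long arm, with the step at the centromere (dashed line); C4-2B and 22Rv1 show no such step.

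Genes of the arm that are not on the list also lay lower in DU145, with a smaller share past the threshold than the listed genes. They share the arm and the DU145 libraries with the list, so their values are a description too. Of the 212 other protein-coding genes of the short arm, 127 were tested; their median was -0.49, with 85% below 0 and 60.6% past the threshold in the lower direction. The 17 tested genes towards the telomere from MFHAS1 had a median of -0.64, the 57 lying between listed genes -0.41 (45.6% lower and 12.3% higher past the threshold), and the 53 towards the centromere from PPP2CB -0.53. In gene order, the first 15 listed genes had a median of -0.61, the next 15 -0.38, the next 15 -0.45 and the last 15 -0.51. The difference was present at each level of expression: short-arm medians were -0.43 under 2 CPM, -0.61 from 2 to 10, -0.49 from 10 to 30, -0.50 from 30 to 100 and -0.36 at 100 CPM and over.

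The lower values ended at the centromere. The last 20 tested genes of the short arm had a median of -0.52, with 18 below 0, and the first 20 tested genes of the long arm had a median of 0.63, with 0 below 0. Over the 340 tested protein-coding genes of the long arm the median was 0.52, with 67.1% higher and 6.47% lower past the threshold. Long and short arm thus lay 1.01 log2 units apart. Among 41 chromosome arms with at least 20 tested genes, the short arm of chromosome 8 had the lowest median in DU145 and the long arm the highest. Next to the short arm came chromosome 21 (-0.48), 7q (-0.46), 10p (-0.45) and 20q (-0.37), and below the long arm came 19q (0.15). The list was drawn from this chromosome after the change of its genes in DU145 had been seen, so these DU145 ranks are a description. In C4-2B the short arm was the 10th lowest of 41 (-0.05) and in 22Rv1 the 3rd lowest (-0.11), while the first 20 long-arm genes had medians of 0.00 and -0.03. RNA counts do not measure DNA, and whether the number of copies of either arm differed between the DU145 control and knockdown cells was not tested.

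**Figure D2:**
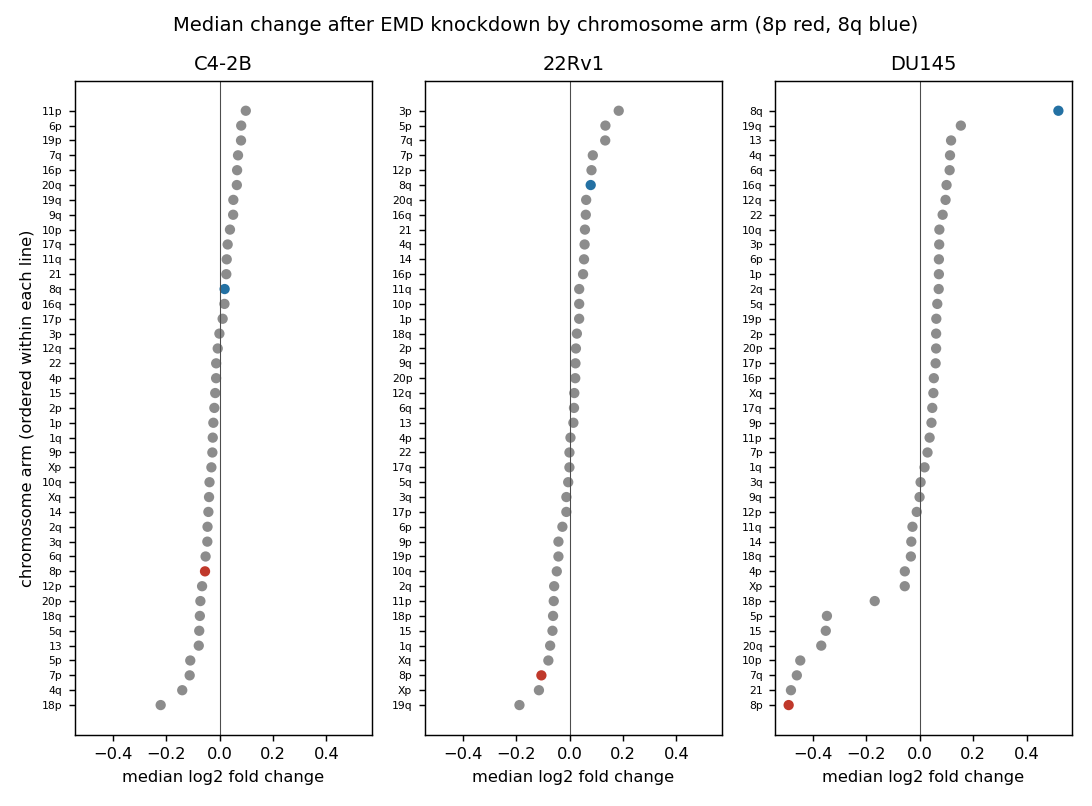
Median log2 fold change (knockdown over control) of the protein-coding genes of each chromosome arm, ordered within each line, with the short arm of chromosome 8 in red and the long arm in blue. In DU145 they sit at the ends of the order, at -0.49 and 0.52; in C4-2B they sit at -0.05 and 0.02 and in 22Rv1 at -0.11 and 0.08.

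**Figure D3:**
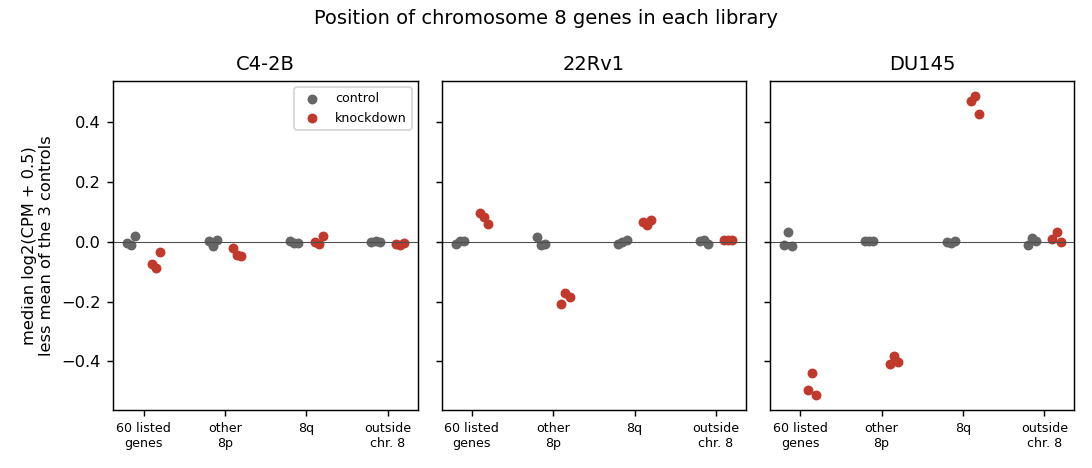
Median position of 4 sets of genes in each library, as log2(CPM + 0.5) less the mean of the 3 controls, with controls in grey and knockdowns in red; each point is 1 library. The 3 DU145 knockdown libraries lie between -0.51 and -0.44 for the listed genes and between 0.43 and 0.49 for the long arm, while genes outside chromosome 8 stay between 0.00 and 0.03.

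The DU145 counts by role, here and below, stand beside 23.6% of all genes lower past the threshold and 24.1% higher. They come from the contrast that chose the genes, so nothing is read from them. Genes of the cytoskeleton and its regulation were lower past the threshold in DU145 in 15 of 15 cases, with a median of -0.61. They included the 2 listed genes with the largest negative differences, DLC1 and LZTS1. DLC1 stood at 99.3, 107 and 103 CPM in the controls and 7.72, 7.39 and 6.72 in the knockdowns, a difference of -3.83 ± 0.06. DMTN, the actin-bundling protein dematin, stood at 38.5, 39.5 and 38.1 CPM in the controls and 9.67, 9.22 and 8.34 in the knockdowns (-2.09 ± 0.07). SORBS3, the focal adhesion adaptor vinexin, went from 95, 104 and 97.6 CPM to 44.3, 42.3 and 44.7 (-1.18 ± 0.05). In these 3 genes every knockdown library lay well below every control library, by more than the median of the arm. LZTS1 was scarce, at 1.86, 1.41 and 2.67 CPM in the controls and 0.412, 0.245 and 0.224 in the knockdowns (-2.72 ± 0.35). PCM1, a scaffold of centriolar satellites, lay near the arm's median, at 244, 246 and 249 CPM in controls and 179, 184 and 192 in knockdowns (-0.41 ± 0.05). The remaining 10 ranged from DPYSL2, a microtubule-binding protein (-0.16), to PDLIM2 (-0.83).

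Phosphatase subunits were lower in 5 of 5 cases, with a median of -0.50. PPP1R3B, which brings protein phosphatase 1 to glycogen, went from 37.4, 39.9 and 37.5 CPM to 11.3, 12.6 and 10.9 (-1.73 ± 0.07), without overlap. PPP2CB, a catalytic subunit of protein phosphatase 2A, differed by -0.71 and PPP2R2A, a regulatory subunit of the same enzyme, by -0.50. PPP3CC, a calcineurin catalytic subunit, differed by -0.28 and MTMR9, a catalytically inactive myotubularin, by -0.19.

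Metabolic, transport and secreted proteins held the main exception. Of these 12 genes, 10 were lower and CSGALNACT1, which starts chondroitin sulfate chains, was higher, from 5.01, 4.37 and 4.33 CPM in the controls to 34.1, 35.9 and 31.7 in the knockdowns (2.91 ± 0.08). Its 3 knockdown libraries lay far above the controls, and it was the only listed gene more than 1 log2 unit above the members' median. GSR, glutathione reductase, was at 255, 266 and 256 CPM in controls and 264, 286 and 257 in knockdowns (0.05 ± 0.05), overlapping. BMP1, a procollagen proteinase (-1.42), and MSRA, which repairs oxidised methionine (-1.21), lay furthest below. CLU, the extracellular chaperone clusterin, went from 71.3, 72.4 and 69.9 CPM to 34.2, 37.8 and 38.8 (-0.95 ± 0.05), and SLC39A14, a zinc and iron importer, from 226, 246 and 238 to 196, 205 and 194 (-0.26 ± 0.05). Neither overlapped between groups.

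Factors of RNA synthesis and processing were lower in 8 of 9 cases, with a median of -0.36, from ZNF395, a zinc finger protein (-1.15), to GTF2E2, a TFIIE subunit (-0.24). The exception was INTS10, an Integrator subunit, at 82.5, 82.5 and 82.7 CPM in controls and 91.2, 95.3 and 87.1 in knockdowns (0.14 ± 0.05), without overlap. Its difference shrank to 0.11 and was no longer past the threshold without knockdown library 2, which left CSGALNACT1 as the only listed gene called higher. INTS9, another Integrator subunit, differed by -0.67. Genes of telomeres, DNA repair and chromosomes were lower in 5 of 5 cases (median -0.49): ESCO2, the acetyltransferase of sister-chromatid cohesion, by -0.70, TNKS, tankyrase, by -0.57, and the other 3 between -0.49 and -0.19. Membrane traffic and nuclear transport gave 7 lower of 8, led by ZDHHC2, a palmitoyltransferase (-1.05), with REEP4, a shaper of the endoplasmic reticulum, at -0.14 ± 0.06 and overlapping. The 6 genes of other roles were lower, from XKR6, a member of the XK family of membrane proteins (-2.11), to KCTD9, an adaptor of cullin ubiquitin ligases (-0.35).

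**Figure D4:**
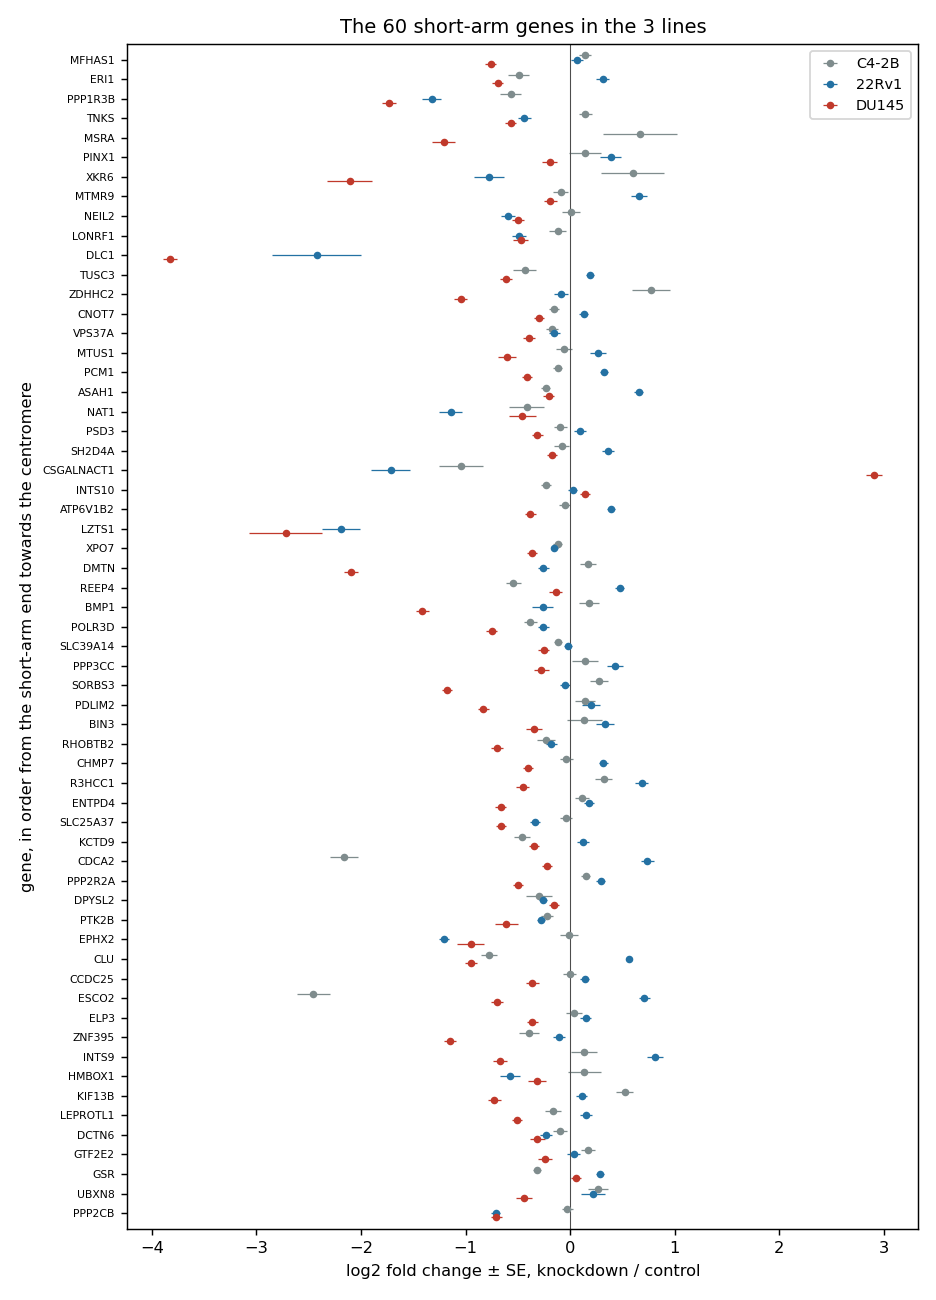
Log2 fold change with its standard error for each listed gene in C4-2B (grey), 22Rv1 (blue) and DU145 (red), in order from the telomere towards the centromere. The lower and upper quartiles of the DU145 values are -0.73 and -0.31, with DLC1 at -3.83 and CSGALNACT1 at 2.91 as the extremes. Values of the other lines scatter on both sides of 0.

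In C4-2B the list leaned lower but did not move together. Below 0 lay 62.1% of the listed genes tested, against 48.3% of all genes. DLC1 was not in the C4-2B table and LZTS1, with 3, 7 and 3 reads in controls and 0, 1 and 10 in knockdowns, did not pass the filter, which left 58 genes. Of these, 7 rose (12.1%), where 19.4% of all genes rose, 22 fell (37.9%), where 22.3% of all genes fell, and 29 were not called. The median was -0.07, against 0.01 over all genes tested, and -0.04 over the 95 other short-arm genes. Scaled by library totals alone, 11 rose and 15 fell. Libraries did not overlap in the lower direction for 24 genes (26% of all genes) and in the higher direction for 14 (24.5% of all genes). Without knockdown library 2, 4 rose in place of 7.

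ESCO2 and CDCA2 had the largest falls in C4-2B, while TNKS, PINX1 and NEIL2, of the same role group, were not called (0.14, 0.14 and 0.01). ESCO2 stood at 21.4, 15.9 and 20.9 CPM in controls and 3.84, 2.91 and 3.89 in knockdowns (-2.46 ± 0.16, edgeR adjusted p = 2.62e-12). CDCA2, which targets protein phosphatase 1 to chromatin at mitotic exit, stood at 22.6, 18.3 and 22.2 CPM and then 4.25, 4.75 and 5.04 (-2.16 ± 0.14, edgeR adjusted p = 1.59e-12). Both groups were clearly apart, and these were the only 2 listed genes more than 1 log2 unit below the median. CSGALNACT1 also fell (-1.04 ± 0.21). Of the 12 genes of metabolism, transport and secretion, 7 fell and 0 rose, beside 22.3% and 19.4% of all genes; the role was not tested as a group. Among them CLU fell from 37.7, 41 and 41.9 CPM to 22.5, 24.5 and 23.5 (-0.78 ± 0.08, edgeR adjusted p = 1.39e-08), and GSR from 213, 209 and 211 to 163, 168 and 177 (-0.32 ± 0.04, edgeR adjusted p = 6.61e-07). Neither overlapped. SLC39A14 went from 338, 321 and 321 CPM to 292, 307 and 305, a small fall (-0.11 ± 0.04, edgeR adjusted p = 0.0182) that lost its call without control library 1 (adjusted p = 0.105) or knockdown library 1 (adjusted p = 0.052).

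RNA factors gave 5 falls and 1 rise of 9, and cytoskeletal genes 3 falls and 2 rises of 13 tested, beside the same shares of all genes. PCM1 went from 115, 117 and 113 CPM to 108, 104 and 106 (-0.12 ± 0.05, edgeR adjusted p = 0.0361), a call that was lost without any one of control libraries 1, 2 and 3 or knockdown libraries 2 and 3, with adjusted p from 0.0603 to 0.101. The clearest rise was that of KIF13B, a kinesin, from 29.4, 33.2 and 30.4 CPM to 38.7, 45.8 and 48.7 (0.52 ± 0.08, edgeR adjusted p = 1.54e-05). R3HCC1, a protein of little-known function, rose from 27, 29.6 and 29.6 CPM to 37.6, 34.2 and 36 (0.32 ± 0.08, edgeR adjusted p = 0.00181). ZDHHC2 rose from 5.29, 8.86 and 9.62 CPM to 12.3, 12.9 and 16 (0.77 ± 0.18, edgeR adjusted p = 0.00252). Groups did not overlap in these 3 genes. PPP2R2A rose slightly, by 0.15, and lost its call without control library 2 (adjusted p = 0.0595).

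In 22Rv1 the list split. MSRA, with 2, 2 and 4 reads in controls and 6, 6 and 6 in knockdowns, was filtered out, which left 59 genes. Of these, 26 rose, where 33.5% of all genes rose, 22 fell, where 34.3% of all genes fell, and 11 were not called. The median was 0.09, against 0.00 over all genes, and became 0.01 with library totals, where the split was 20 rising and 26 falling. Libraries did not overlap for 26 genes in the higher direction (35.1% of all genes) and 21 in the lower (35.9% of all genes). The 106 other short-arm genes tested had a median of -0.21, and the 47 of them lying between listed genes -0.55, with 63.8% falling and 10.6% rising. Weakly expressed genes were lower in 22Rv1 as a whole: the short arm had medians of -2.05 under 2 CPM, -1.08 from 2 to 10 and 0.14 at 100 CPM and over, and genes outside chromosome 8 had -0.97, -0.50 and 0.15.

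Among the rises in 22Rv1, INTS9 had the largest, 0.81. The 4 with the smallest adjusted p were CLU, ASAH1, ESCO2 and CDCA2. CLU rose from 326, 332 and 321 CPM to 490, 474 and 481 (0.56 ± 0.03, edgeR adjusted p = 7.31e-12). ASAH1, the lysosomal acid ceramidase, rose from 104, 111 and 111 CPM to 167, 173 and 172 (0.65 ± 0.04, edgeR adjusted p = 1.77e-11). ESCO2 and CDCA2, which fell in C4-2B, rose here. ESCO2 rose from 41.5, 42.8 and 40.8 CPM to 68.8, 66.3 and 68.9 (0.71 ± 0.05, edgeR adjusted p = 2.69e-10), and CDCA2 from 35.3, 33.1 and 33 to 52.7, 57.2 and 59.4 (0.74 ± 0.06, edgeR adjusted p = 1.79e-09). In all 4 genes the 3 knockdown libraries lay above the 3 controls. GSR rose by 0.29 and PCM1 by 0.32, while SLC39A14 was at 194, 192 and 193 CPM in controls and 186, 190 and 194 in knockdowns, overlapping.

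The 4 falls in 22Rv1 with the smallest adjusted p were those of EPHX2, PPP2CB, PPP1R3B and LZTS1. EPHX2, soluble epoxide hydrolase, fell from 112, 117 and 116 CPM to 48.9, 49 and 51 (-1.21 ± 0.05, edgeR adjusted p = 1.16e-14). PPP2CB fell from 129, 136 and 137 CPM to 82.7, 81.7 and 80.8 (-0.71 ± 0.04, edgeR adjusted p = 1.07e-11), while its partner PPP2R2A rose by 0.29. PPP1R3B fell from 27.8, 29.4 and 27.8 CPM to 10.3, 11.9 and 11.8 (-1.33 ± 0.09, edgeR adjusted p = 4.25e-11). LZTS1 fell from 7.73, 8.93 and 7.09 CPM to 1.62, 1.96 and 1.59 (-2.20 ± 0.18, edgeR adjusted p = 1.41e-09). Groups were apart in these 4 falls. DLC1 was barely detected in 22Rv1, at 1.71, 1.56 and 1.54 CPM and then 0.243, 0.184 and 0.471 (-2.42 ± 0.42, edgeR adjusted p = 4e-05). By role, beside 33.5% of all genes rising and 34.3% falling and with no test of any role, phosphatases gave 3 rises and 2 falls, telomere and chromosome genes 3 and 2, cytoskeletal genes 5 and 7 of 15, RNA factors 4 and 2 of 9, metabolism 5 and 5 of 11, membrane traffic 4 and 2 of 8, and the remaining 6 genes 2 and 2.

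Set against each other, C4-2B and 22Rv1 called 10 listed genes in opposite directions: ERI1, TUSC3, CNOT7, PCM1, ASAH1, REEP4, CDCA2, CLU, ESCO2 and GSR fell in C4-2B and rose in 22Rv1. In both lines 8 fell, namely PPP1R3B, VPS37A, NAT1, CSGALNACT1, XPO7, POLR3D, RHOBTB2 and PTK2B, and 2 rose, R3HCC1 and PPP2R2A. Of all genes tested, 19.4% rose and 22.3% fell in C4-2B, and 33.5% rose and 34.3% fell in 22Rv1. The share of all genes called alike or in opposite directions in both lines was not computed, so nothing is read from these counts. Some of the calls named above depended on a library. In C4-2B, without control library 3 the adjusted p was 0.133 for VPS37A and 0.18 for XPO7, without control library 1 it was 0.309 for NAT1, without knockdown library 3 it was 0.15 for RHOBTB2, and without control library 2 it was 0.097 for PCM1 and 0.0595 for PPP2R2A. In 22Rv1 it was 0.237 for CNOT7 without knockdown library 1 and 0.139 for VPS37A without knockdown library 2. The difference itself was tested in a fit of all 18 libraries over the 17152 genes shared and tested, in which DLC1 could not enter. The response was higher in C4-2B for 17 listed genes, where 29.1% of all genes were, and lower for 20, where 27% were. The 2 largest were lower ones, ESCO2 (-3.12 ± 0.14, edgeR adjusted p = 3.87e-19) and CDCA2 (-2.85 ± 0.12, edgeR adjusted p = 6.8e-20). EPHX2 was higher by 1.24 ± 0.09 and CLU lower by 1.29 ± 0.07 on the log2 scale. The median difference was -0.06, against 0.06 over all genes, and 0.02 with library totals, where the share of higher responses among those called was 56.4% in place of 45.9%.

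The DU145 response was set against the other lines in the same fit, and both comparisons share the DU145 libraries that chose the list. Against C4-2B, 40 of 59 listed genes had a lower response (21.2% of all genes) and 6 a higher response (24.5% of all genes), with a median difference of -0.38, against 0.02 over all genes. The 6 higher ones were CSGALNACT1, CDCA2, ESCO2, REEP4, GSR and INTS10, of which all fell in C4-2B. Against 22Rv1, 47 of 59 had a lower response (25.3% of all genes) and 4 a higher response (30.4% of all genes), with a median of -0.55, against 0.08 over all genes. The 4 higher ones were CSGALNACT1, NAT1, EPHX2 and INTS10. CSGALNACT1, which fell from 6.62, 5.97 and 6.23 CPM to 2.36, 3.30 and 3.40 in C4-2B and from 6.84, 8.43 and 7.09 to 2.64, 1.65 and 2.35 in 22Rv1, was higher in DU145 by 3.95 ± 0.19 and 4.66 ± 0.19 respectively. Over the other short-arm genes, the median difference was -0.40 against C4-2B and -0.37 against 22Rv1. The 48 of them lying between listed genes went the other way against 22Rv1, with a median of 0.11, 37.5% higher and 29.2% lower.

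Before knockdown, the listed genes stood lowest in C4-2B. Control levels were compared in the fit of all 18 libraries, whose scaling over shared genes sets its CPM apart from those above. The list was chosen for its change in DU145, with earlier results of these data known. Between C4-2B and 22Rv1, 46 of 59 genes were lower in C4-2B (40.1% of all genes) and 8 higher (38.3% of all genes). Their median was -0.60, against 0.00 over all genes. The other short-arm genes had a median of -0.82. The long and short arms of chromosome 8 were the 2 lowest of 41 arms in this comparison, at -0.71 and -0.70. Between DU145 and C4-2B, 42 of 59 were higher in DU145 (41.6% of all genes) and 11 lower (41.6% of all genes), with a median of 0.72. Between DU145 and 22Rv1, 30 were higher (41.1% of all genes) and 25 lower (42.8% of all genes), with a median of 0.14, which became -0.04 with library totals, a scaling that moved the median of all genes to -0.20 there and to -0.14 for DU145 against C4-2B. Other short-arm genes had medians of 0.64 for DU145 against C4-2B and -0.21, of the opposite sign, for DU145 against 22Rv1. The DU145 control libraries are part of the contrast that chose the list.

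**Figure D5:**
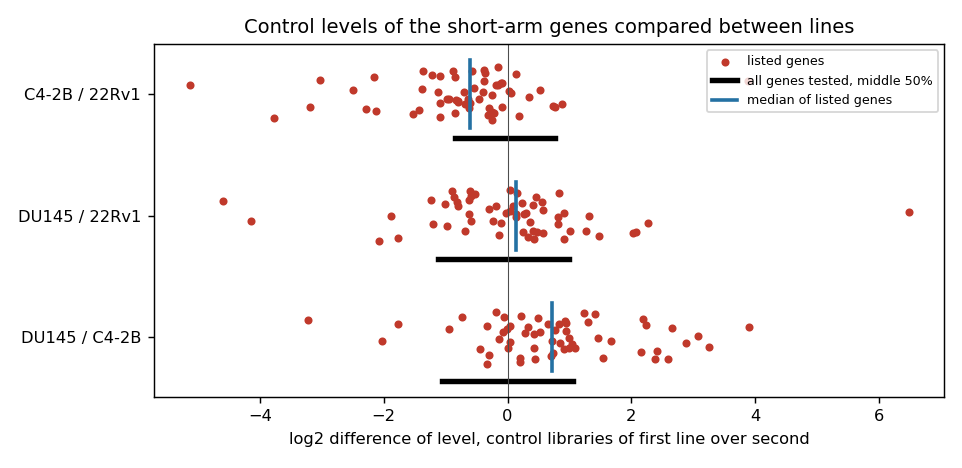
Log2 difference of control level between lines for each listed gene (red), with the median of the listed genes (blue) and the middle 50% of all genes tested (black bar); points are spread vertically for legibility. The median of the listed genes is 0.72 for DU145 over C4-2B, 0.14 for DU145 over 22Rv1 and -0.60 for C4-2B over 22Rv1.

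Single genes differed far more than these medians. DPYSL2 averaged 221 ± 15.3 CPM in DU145 and 201 ± 9.61 in 22Rv1 but 14.5 ± 2.11 in C4-2B (SD, n = 3). TUSC3, a subunit of the oligosaccharyltransferase that glycosylates nascent proteins, averaged 147 ± 5.96 in DU145, 181 ± 6.08 in 22Rv1 and 19.7 ± 1.91 in C4-2B. CLU averaged 326 ± 2.29 in 22Rv1, 76.9 ± 1.76 in DU145 and 39.7 ± 2.23 in C4-2B. Each of these 3 genes differed several-fold between C4-2B and 22Rv1, beyond the SDs, while DPYSL2 in DU145 and 22Rv1 lay close together. In contrast, PTK2B, the focal adhesion kinase relative Pyk2, was scarce in DU145, at 7.25 ± 0.581 CPM, against 68.2 ± 0.844 in C4-2B and 177 ± 5.94 in 22Rv1. EPHX2 followed the same order, at 6.43 ± 0.707, 26.2 ± 0.848 and 115 ± 2.2 CPM. SLC25A37, the mitochondrial iron importer mitoferrin-1, averaged 345 ± 15.1 CPM in DU145, 73 ± 1.81 in C4-2B and 81.3 ± 4.39 in 22Rv1. ERI1, an exonuclease that trims histone mRNA, likewise stood highest in DU145, at 112 ± 0.755 CPM, with 20.9 ± 1.24 in C4-2B and 27.3 ± 0.418 in 22Rv1. PPP2R2A was nearly level, at 112 ± 1.94 CPM in DU145, 112 ± 2.3 in C4-2B and 102 ± 0.717 in 22Rv1; its difference between DU145 and C4-2B was not called (edgeR adjusted p = 0.944).

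Overlapping gene models limit some of these values. CNOT7 and VPS37A, and CCDC25 and ESCO2, overlap on opposite strands, and LEPROTL1 and DCTN6 overlap on the same strand. Whether reads were counted by strand is not given in the sources used here. For the pairs on opposite strands, it is therefore unknown how reads in the overlap were assigned. Strand could not part the reads of LEPROTL1 and DCTN6, and their assignment was not tested.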

How the data were processed

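Gene expression was measured by RNA-seq in 18 libraries, in 3 tables of 1 line each. The authors used STAR, RSEM 1.3.1 and the GRCh38 build, per the submitters' processing notes. The deposited values are expected counts per gene, already whole numbers, so no further rounding was needed. The annotation release is not given in the sources used here. The DU145 table also held 92 spike-in entries and 30 second copies of pseudoautosomal genes, which were left out. No per-sample column was left unused (0). PINX1 has 2 entries in the DU145 table, and the one whose identifier is in all tables was used.

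The members, roles and lists were chosen with earlier results of these data known. Groups came from sample titles. Within a line, filterByExpr (minimum count 10, total 15) removed weakly expressed genes; counts were scaled by TMM and tested with the robust quasi-likelihood test of edgeR 4.0.16 in R 4.3.3, with Benjamini-Hochberg adjustment over all genes tested (15801 in C4-2B, 16656 in 22Rv1, 19377 in DU145). Lines were compared in 1 fit of 18 libraries with an interaction term. Standard errors are the log2 change over the square root of F. Medians per library used log2(CPM + 0.5). Positions came from GENCODE 29, which located 95.4% to 97.6% of tested genes; arms were parted at the widest gap without genes. Values in every library are given, per line, for up to 4 members per direction with the smallest adjusted p whose groups do not overlap, for the 4 members with the highest mean CPM, and for DU145 members called against the majority; other members with library values were chosen after their values were seen. On simulated counts with 200 changed genes (1 log2 unit) the test recovered 95.5% in C4-2B, 97% in 22Rv1, 95.5% in DU145 and 67% for the response difference of DU145 against C4-2B. The changed genes were drawn from well-counted ones, and every gene was given the same relative spread. These shares do not cover scarce genes or smaller changes. Alternatives were other scalings, no filter, DESeq2 1.42.0, a replicate block, all libraries in 1 fit, all genes of the arm, and each library left out. Library totals set the counting error, to which the spread between libraries adds. No sequences are shown. A marker gene used to check the lines is not reported here.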

Additional observations from a re-analysis of the deposited data

Results flagged for a closer look

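The response to EMD knockdown differed between lines by a direct test, the interaction term of edgeR over all 18 libraries, for some of the listed genes. For DU145 against C4-2B, 6 genes had a higher response (24.5% of all genes) and 40 a lower one (21.2% of all genes); DMTN, which differed by -2.25 ± 0.10 on the log2 scale (edgeR adjusted p = 2.87e-19), had the smallest p. For DU145 against 22Rv1, 4 had a higher response (30.4% of all genes) and 47 a lower one (25.3% of all genes), and CSGALNACT1 differed by 4.66 ± 0.19 (edgeR adjusted p = 4.85e-20). Both comparisons contain the DU145 libraries that chose the genes, so these values describe the choice. For C4-2B against 22Rv1, 17 of 59 were higher (29.1% of all genes) and 20 lower (27% of all genes), near those shares. CDCA2 differed by -2.85 ± 0.12 there (edgeR adjusted p = 6.8e-20). Earlier results of these data were known when the genes were chosen. Line coincides with table and batch label, and medium differs for DU145.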

How the results depend on the processing

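Of 270 recomputed counts of listed genes, 264 stayed within 1.5 times the reported count. The 6 exceptions were the rises in C4-2B, 11 with library totals and 4 without knockdown replicate 2, and the rises in DU145, 1 with DESeq2's size factors, without the filter, with DESeq2, or without knockdown replicate 2. With library totals, falls in C4-2B went from 22 to 15, which still counts as within 1.5 times. In 22Rv1, rises went from 26 to 20 and falls from 22 to 26, also within it. Among the 270 were control levels recomputed without a knockdown library, which could hardly change. Of 27 recomputed medians, 20 moved by less than the spread between libraries. The median in 22Rv1 changed sign, to -0.11, over all tested genes of the arm; with library totals the medians were -0.02 in C4-2B, 0.01 in 22Rv1 and -0.44 in DU145. Leaving out each library gave 4 to 7 rises and 17 to 20 falls in C4-2B, 22 to 26 and 21 to 22 in 22Rv1, and 1 to 3 and 49 to 56 in DU145. At least 1 such removal ended the call of 10 of 29 listed genes called in C4-2B, 8 of 48 in 22Rv1 and 8 of 58 in DU145, and turned 0. Library totals put the share of rises among all called genes at 57% (46.6% with TMM) in C4-2B, 42% (49.5% with TMM) in 22Rv1, and 57.1% (50.5% with TMM) in DU145. With the replicate number as a block, counts of rises and falls were 7 and 22 in C4-2B, 25 and 22 in 22Rv1, and 2 and 57 in DU145. Deviations of same-numbered libraries correlated between -0.04 and 0.32, not above 0.1 in every pair, so the numbers were not taken to pair the libraries; 1, 1 and 2 of 3 numbers in C4-2B, 22Rv1 and DU145 correlated best with their own. Listed genes with few reads, such as MSRA and LZTS1, are limited by depth.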

Other observations

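Other arms of the DU145 genome that lay low as a whole were chromosome 21, with 66.9% of 145 tested protein-coding genes lower past the threshold, 7q, with 69.1% of 469, 10p, with 65.9% of 129, and 20q, with 61.6% of 258. Chromosome 15 and 5p followed, at medians of -0.35 each, and the next arm, 18p, stood at -0.17. For the short arm of chromosome 8 the share was 71.1% of 187. No DNA data were analysed here.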
